A study of Mus musculus with 4 samples.

Results

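Cadherins, protocadherins and the alpha and delta catenins that tie cadherins to the cytoskeleton were examined in mouse neurospheres with and without the transcription factor E2F4. The members were every probe set with 1 gene symbol whose symbol is a numbered Cdh, any Pcdh, a numbered Celsr or Fat, or a numbered alpha or delta catenin (Ctnna, Ctnnd). This gave 68 genes of 18193 with a single-symbol probe set, and 122 probe sets of 35041. They comprised 21 Cdh genes, 12 non-clustered protocadherins, 23 clustered protocadherins, 4 Fat genes, 3 Celsr genes and 5 catenins. Neurospheres are balls of neural stem cells and progenitors that grow in suspension.

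The cells came from the forebrain of mouse embryos at E12.5, and the labels of both genotypes name the ventral telencephalon, its lower region. There was 1 RNA sample of wild-type neurospheres and 1 labelled as knockout of E2f4. Both were read on the array designs MOE430A and MOE430B, so 4 arrays were used. Strain, sex, the number of embryos behind a culture and the culture medium are not given in the sources used here, nor is the deleted part of E2f4. Since each genotype had only 1 sample, nothing could be tested across samples, and a difference below is a difference between 2 samples.

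Cadherins are calcium-dependent adhesion proteins that bind a like partner on the next cell, and in the embryonic brain they hold progenitors together at the ventricular surface and sort neurons into regions. Classical cadherins bind beta and delta catenins through their tails, and alpha catenin links that complex to actin. Clustered protocadherins are made from alpha, beta and gamma gene arrays and give single neurons distinct surface identities, while non-clustered protocadherins stand as separate genes and act mostly in neurons and their axons. Fat and Celsr proteins are very large cadherins that orient cells within a sheet, a property called planar cell polarity.

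Values are MAS5 signals on a linear scale, and a difference is the log2 of the knockout signal divided by the wild-type signal within an array design, centred on the median of that design. A probe set was called measured where both samples reached a floor, the median signal of its design, 735 on MOE430A and 942 on MOE430B; the tables hold no detection calls, so a signal under the floor was not shown to be absent. Where 2 signals are given together, the wild type comes first. Genes were given the mean over their measured probe sets. With no replicate samples, the spread available was that between probe sets of a gene, a pooled SD of 0.33 on the log2 scale over 3957 genes. It was 0.27 within MOE430A and 0.41 within MOE430B. What makes up this spread was not tested. It holds no variation between replicate samples, so it cannot show whether the genotypes differ. As a size rule, a 1.5-fold difference was used, which is 0.58 on the log2 scale.

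E2f4 was read by 1 probe set, at 1812 for wild type against 1535 for the library labelled knockout, a log2 ratio of -0.24. The sources used here do not place that probe set relative to the deletion, so it checks nothing about the label. All 10 progenitor markers listed were measured, 7 higher and 3 lower, with a median log2 ratio of 0.07. Only Hes5 among them passed 1.5-fold, at -0.86 from ratios of -0.24 and -1.48. Ventral telencephalon markers were lower in 8 of 8 measured genes of the knockout sample, with a median of -0.53. Past 1.5-fold among them were Lhx8 (-1.02), Dlx5 (-0.95) and Gad2 (-0.63). The 2 ventral genes not measured, Lhx6 and Gsx1, were above the floor only in the wild type. Lhx6 read 2678 and 597 on one probe set, at least 3.64-fold lower, and 902 and 539 on the other. Gsx1 read 1013 and 583, at least 1.38-fold lower. How common that was over all probe sets was not counted. Dorsal markers were higher in 7 of 8, with a median of 0.55, and Eomes (0.69) and Fezf2 (0.64) passed 1.5-fold. Summed over its probe sets on MOE430A, the ventral list read 29098 for wild type against 19320 for knockout, the dorsal list 22431 and 32273, and the neuron list 136286 and 121263. No marker of these 3 lists was below the floor in both samples on all its probe sets. Of the 9 neuron markers, 8 were lower, with a median of -0.17. In bulk RNA, fewer cells of a type and less RNA per cell cannot be told apart, and the part of these marker differences in any cadherin value below was not tested.

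Promoter sequences are shown for 4 members: the delta catenins Ctnnd1 and Ctnnd2, which lay on opposite sides of 0, Fat3, whose mean was the farthest below 0 among measured members, and Cdh22, the 1 member with a full E2F motif. They are the 250 bases before a transcription start in RefSeq, assembly GRCm38.p6, printed along the gene's own strand. For Ctnnd1, which has a further start in that table, the start printed is the one farther upstream in the gene. Capitals mark the E2F motif (TTTCCCGC, TTTGGCGC, TTTGCCGC or TTTCGCGC) or its shorter core GGCGC, each searched on both strands; the core is contained in one of the 4 long forms.
Ctnnd1, minus strand, chr2:84658978-84659227: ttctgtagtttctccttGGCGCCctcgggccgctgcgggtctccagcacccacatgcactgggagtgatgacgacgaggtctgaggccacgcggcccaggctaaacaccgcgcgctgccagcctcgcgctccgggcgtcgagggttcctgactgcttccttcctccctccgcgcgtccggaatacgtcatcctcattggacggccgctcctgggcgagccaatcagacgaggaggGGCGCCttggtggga
Ctnnd2, plus strand, chr15:30172284-30172533: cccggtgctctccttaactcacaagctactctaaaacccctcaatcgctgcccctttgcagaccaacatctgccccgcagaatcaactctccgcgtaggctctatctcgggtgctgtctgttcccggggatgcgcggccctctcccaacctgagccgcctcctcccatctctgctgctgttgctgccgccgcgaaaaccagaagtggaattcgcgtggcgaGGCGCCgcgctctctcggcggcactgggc
Fat3, minus strand, chr9:16502055-16502304: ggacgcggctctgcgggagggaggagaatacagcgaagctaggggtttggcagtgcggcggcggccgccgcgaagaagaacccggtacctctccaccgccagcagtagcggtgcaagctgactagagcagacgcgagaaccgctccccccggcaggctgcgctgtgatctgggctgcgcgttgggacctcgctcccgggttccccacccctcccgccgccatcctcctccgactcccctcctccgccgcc
Cdh22, minus strand, chr2:165234738-165234987: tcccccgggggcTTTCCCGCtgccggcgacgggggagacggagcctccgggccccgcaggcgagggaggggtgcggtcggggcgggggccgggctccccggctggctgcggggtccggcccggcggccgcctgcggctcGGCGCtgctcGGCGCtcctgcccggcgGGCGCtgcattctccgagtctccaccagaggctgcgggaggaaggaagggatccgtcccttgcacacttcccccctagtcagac

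Of the 68 members, 30 had a promoter in the table, with 36 starts in all. The long E2F motif was in 1 of those 36 promoters, that of Cdh22, at position -238 counted from the start, against 1.86% of all 32851 promoters. The core was in 17 of 36, or 47.2%, against 32.0% of all. It occurred in 2 stretches of the Ctnnd1 sequence shown, 1 of Ctnnd2 and 3 of Cdh22. Those letters do not occur in the Fat3 sequence shown, which says nothing of the factor. The cell cycle element TTTGAA, searched the same way, was in 4 of 36 member promoters and 16.0% of all. A match is a run of letters and was not shown to be a bound site.

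Cadherin and protocadherin genes taken as a whole were nearly balanced between the 2 directions. Of 68 members, 26 were measured, or 38.2%, against 55.9% of all genes. The 2 parts differed: 2 of 23 clustered protocadherins were measured (8.70%), and 24 of the 45 other members (53.3%), near the share of all genes. Another 4 were above the floor in 1 sample alone, a share not counted over all genes, and 38 were below it in both. Among the 26 measured members, 14 were higher and 12 lower in the knockout sample, for a median log2 ratio of 0.02; over all 10174 measured genes the median was -0.001. At the 1.5-fold size, 2 members were higher, where 3.52% of all genes were, and 2 were lower, where 3.86% were. The higher members were Celsr1 and Cdh26 and the lower were Fat3 and Pcdhb15. None reached 2-fold, a size that 1.01% of all genes reached in either direction.

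All 4 of those members rested on 1 measured probe set. Among members with 1 measured probe set, 4 of 13 passed 1.5-fold, and 10.7% of all such genes did. Among members with more than 1, none of 13 did, where the background was 2.17%. By array design, 1 of 18 member probe sets on MOE430A was at least 1.5-fold higher (2.69% of all measured single-symbol probe sets) and 0 were lower (2.66%). On MOE430B, 1 of 23 was higher (7.44%) and 3 were lower (7.79%). Counts of 1 to 3 among so few probe sets allow no reading of members against these backgrounds. Where a member had more than 1 measured probe set, all of them lay on the same side of 0 in 10 of 13 cases, against 42.2% of the 3957 such genes of all kinds and 52.6% of those with exactly 2.

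**Figure D1:**
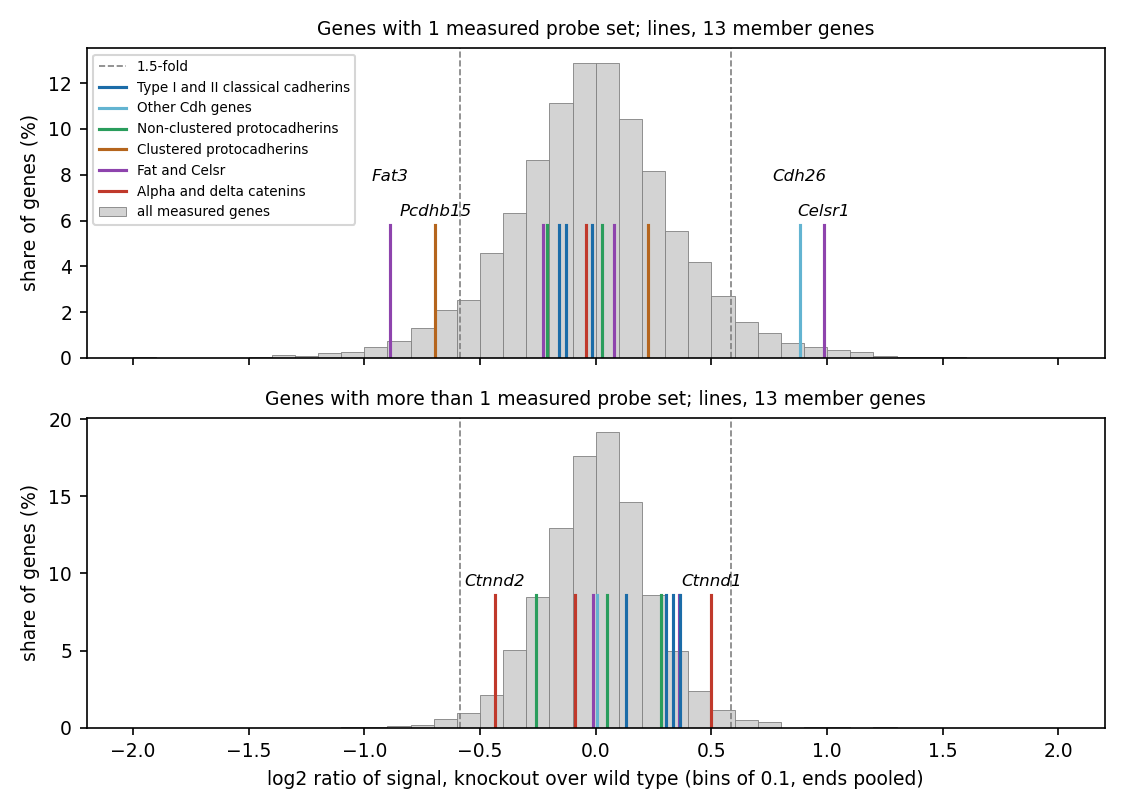
Share of all measured genes by log2 ratio of knockout over wild type, in bins of 0.1, for genes with 1 measured probe set (top) and more than 1 (bottom); coloured lines are the member genes by class and dashed lines mark 1.5-fold. The 4 members past 1.5-fold, Fat3, Pcdhb15, Cdh26 and Celsr1, are all in the top panel, and the 13 members in the bottom panel lie between Ctnnd2 and Ctnnd1.

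Among catenins, the delta catenin Ctnnd1 was higher in the knockout sample on every probe set, on both array designs. It encodes p120 catenin, which binds the tail of classical cadherins and keeps them at the cell surface. On MOE430A its signal was 1416 for wild type against 1948 for knockout, a log2 ratio of 0.46. The probe sets on MOE430B read 7151 and 9842 in one case and 1431 and 2127 in the other, ratios of 0.46 and 0.57. The knockout sample was thus the higher on 3 of 3 probe sets, with a mean of 0.50, or 1.41-fold, which is under the 1.5-fold size. All 3 read the same RNA samples and are not replicates. The brightest of them is of a kind that can match other transcripts, and without it the mean was 0.52. Of all genes with 3 measured probe sets, 30.3% had them on the same side of 0.

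Ctnnd2, which encodes the neural delta catenin of dendrites and synapses, lay on the other side. Its MOE430A probe set read 5500 and 5080, a ratio of -0.11, and its MOE430B probe set 9033 and 5322, a ratio of -0.76. Both were lower in the knockout sample, by unlike amounts, with a mean of -0.44. The neuron markers, lower in 8 of 9 genes, stand beside this value, and their part in it was not tested.

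The alpha catenins Ctnna1 and Ctnna2 were near 0, and Ctnna3 was above the floor in 1 sample alone. Ctnna1, the widely expressed form, had 2 measured probe sets on MOE430A, with wild-type signals of 3836 and 5601 against 3547 and 5319 for the knockout, ratios of -0.11 and -0.07. The dimmer of these is of a kind that can match other transcripts. The other 2 Ctnna1 probe sets were below the floor in both samples. Ctnna2, the form of neural tissue, read 1769 and 1713, a ratio of -0.04. Ctnna3, known mainly from heart and testis, was above the floor only in the knockout sample on 1 of 2 probe sets, at 394 and 1778, which gives at least 1.89-fold higher. The other Ctnna3 probe set did not reach the floor in either sample, at 580 and 160, and gives no direction.

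Of the type I classical cadherins, Cdh2 and Cdh4 were measured, and both had means above 0. Cdh2, or N-cadherin, is the main cadherin of neural progenitors. Its probe sets read 7761 and 9022, and 7246 and 7417, wild type first. The ratios were 0.22 and 0.04, a mean of 0.13. Cdh4, or R-cadherin, a close relative of N-cadherin in brain and retina, read 1482 and 2117 on MOE430A and 10683 and 11382 on MOE430B. Both ratios were above 0, at 0.52 and 0.09, with a mean of 0.31. Another Cdh4 probe set did not reach the floor. Cdh1, the cadherin of epithelia, was below the floor at 60.0 and 174, and so was Cdh15, the cadherin of muscle, at 447 and 622. Cdh3, or P-cadherin, was below the floor on MOE430A, at 124 and 480, and above it only in the wild type on MOE430B, at 1193 and 159, which gives at least 1.27-fold lower. Only the MOE430B probe set of Cdh3 gives a direction.

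Type II cadherins differ from type I in how their outermost domain docks, and many mark single regions or layers of the developing brain. Cdh6, which marks parts of the embryonic telencephalon, was higher in the knockout sample on both arrays. Its signals were 1666 and 2485 on MOE430A and 2388 and 2636 on MOE430B, for ratios of 0.58 and 0.14 and a mean of 0.36. Cdh10 had 2 measured probe sets, both on MOE430B, at 1843 and 2042 and at 1320 and 1892. These gave 0.15 and 0.52, a mean of 0.34, and the other 2 Cdh10 probe sets were below the floor. For Cdh4, Cdh6 and Cdh10 alike the knockout sample was the higher on both measured probe sets, but by unlike amounts.

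Lower or near 0 were Cdh7, Cdh22 and Cdh11. Cdh7 read 2206 and 1973, a ratio of -0.16, with 2 further probe sets below the floor. Cdh22 read 1629 and 1488, a ratio of -0.13. Cdh11, a cadherin of mesenchyme and of some neurons, read 1199 and 1182 on MOE430A, a ratio of -0.02. On MOE430B the same gene was above the floor only in the knockout sample, at 613 and 1962, or at least 2.08-fold higher. The designs disagree on Cdh11, and which probe set reads the gene better was not tested. Cdh5, the cadherin of endothelial cells, was below the floor on both of its probe sets, at 436 and 608 for wild type against 491 and 427 for knockout. Of the endothelial markers 5 of 8 were measured, with a median of -0.13, and Pecam1 and Tek were below the floor in both samples. Mesenchymal and meningeal markers had 1 of 8 genes measured, at 0.10. They read 3495 and 3940 in sum on MOE430A, where 12 of 13 probe sets were below the floor in both samples. Microglia markers had 1 of 6 genes measured, at -0.25. The part of these cells in the Cdh11 and Cdh5 values was not tested. Cdh8, Cdh9, Cdh18, Cdh19 and Cdh20 were below it on every probe set.

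Among the remaining Cdh genes, Cdh26, a cadherin known from epithelia, read 1126 for wild type against 2072 for knockout on its 1 probe set, on MOE430B. The ratio was 0.88, or 1.84-fold. Of the epithelial markers 1 of 6 genes was measured, Epcam, at 0.36 on an MOE430B probe set of a kind that can match other transcripts. The Epcam probe set on MOE430A was below the floor, at 119 and 46.5. Epithelial signals summed to 2907 and 3494 on MOE430A, where 8 of 11 probe sets were below the floor in both samples. The part of these markers in the Cdh26 value was not tested. Cdh13, or T-cadherin, which lacks a tail and is anchored by a lipid, had 2 measured probe sets that disagreed. It read 780 and 946 on MOE430A, a ratio of 0.28, and 4082 and 3388 on MOE430B, a ratio of -0.27. Cdh16, Cdh17 and Cdh23, cadherins of kidney, gut and hair cells, were below the floor in both samples. Over the 9 measured Cdh genes, 6 were higher and 3 lower, with a median of 0.13.

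**Figure D2:**
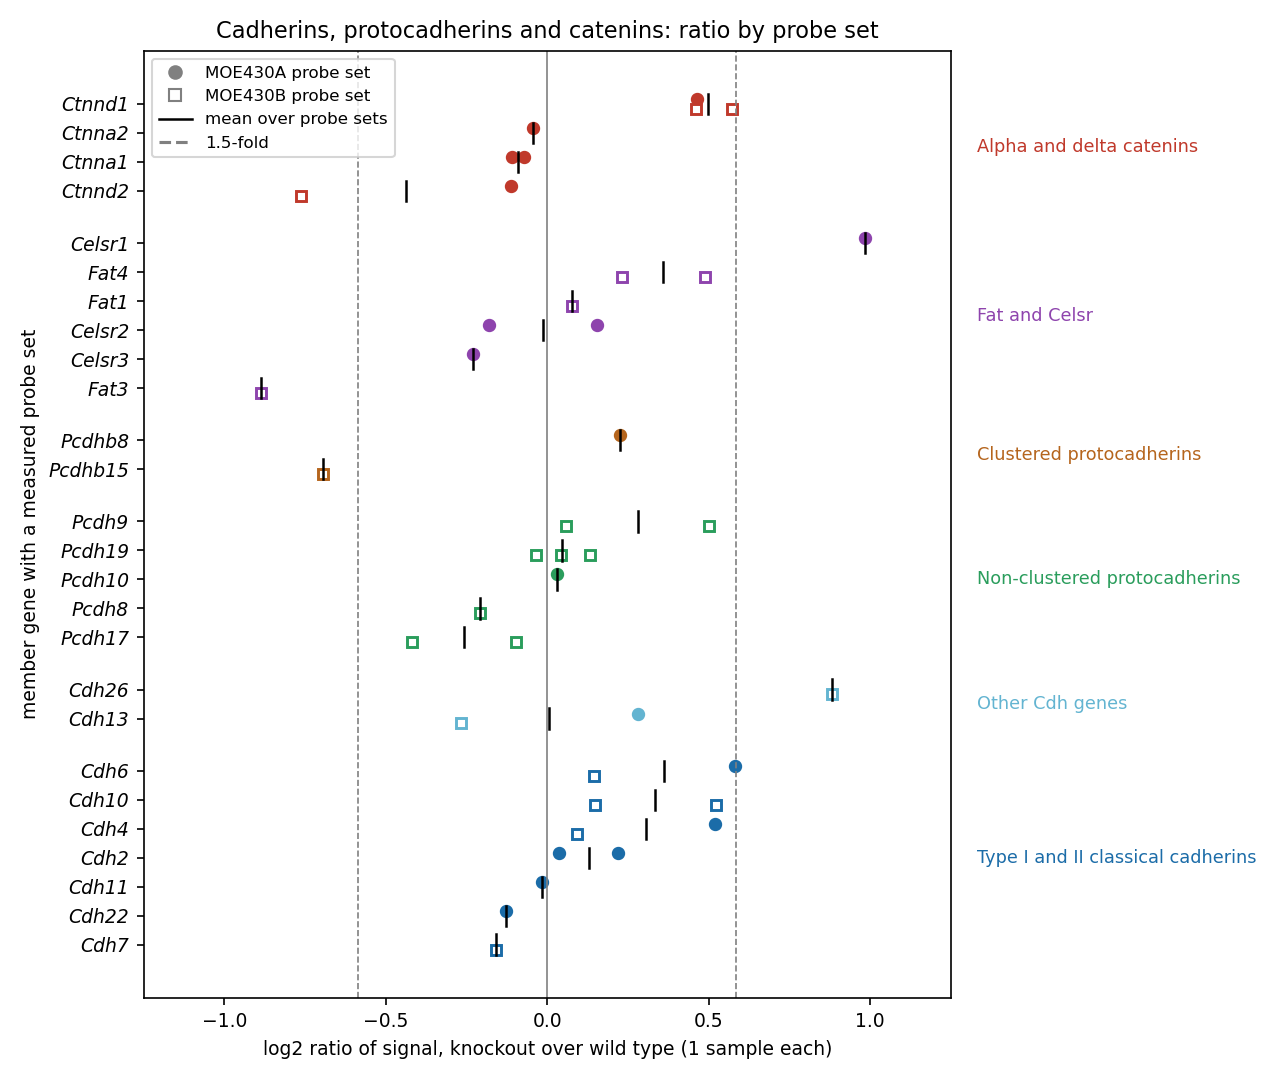
Log2 ratio of knockout over wild type for every measured probe set of the 26 measured member genes, by class; filled circles are MOE430A, open squares MOE430B, black bars the gene's mean and dashed lines 1.5-fold. The 3 probe sets of Ctnnd1 lie together at 0.46, 0.46 and 0.57, while those of Cdh13 lie on opposite sides of 0.

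Non-clustered protocadherins had 5 of 12 genes measured, 3 higher and 2 lower, with a median of 0.03 and none past 1.5-fold. In the delta-1 group, Pcdh9, a protocadherin of cortical and other neurons, read 7939 and 11236 on one probe set and 2404 and 2501 on another. These MOE430B probe sets gave 0.50 and 0.06, a mean of 0.28. A further one was above the floor only in the knockout sample, at 580 and 1032, at least 1.10-fold higher. The knockout sample was the higher on all 3. Pcdh1, Pcdh7 and Pcdh11x were below the floor on every probe set.

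In the delta-2 group, Pcdh19 stayed near 0 on all 3 probe sets. It is an X-linked gene that works with N-cadherin. The wild-type signals were 9326, 5429 and 6354, and those of the knockout sample 10217, 5591 and 6192. The ratios ran from -0.04 to 0.13, with a mean of 0.05. Xist, which silences one X chromosome in female cells, read 8980 and 1178 on its brightest probe set. Another Xist probe set was above the floor only in the wild type, at 1817 and 47.1, and a further one was below it in both, at 225 and 41.8. Sex is not given, so a difference in sex between the samples could not be told apart from genotype. Whether the Xist difference bears on X-linked or other members was not tested.

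Pcdh17 and Pcdh8 were lower in the knockout sample on each probe set that could be read. Pcdh17, a protocadherin of axons and synapses, read 1787 and 1670, and 1580 and 1181, for ratios of -0.10 and -0.42. Pcdh8, which is induced by activity in neurons, read 2158 and 1865 on MOE430B, a ratio of -0.21. On MOE430A it was above the floor only in the wild type, at 1134 and 690, or at least 1.54-fold lower. Its mean therefore uses only the smaller difference. The MOE430B probe set of Pcdh8 is of a kind that can match other transcripts.

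Pcdh10, a protocadherin of axon tracts that is known from the ventral forebrain, had 6 probe sets that did not share a direction. The 1 measured, on MOE430A, read 1062 and 1081, a ratio of 0.03, and is of a kind that can match other transcripts. On MOE430B one was above the floor only in the wild type, at 1372 and 687, at least 1.46-fold lower. Another was above it only in the knockout sample, at 801 and 1416, at least 1.5-fold higher. The other 3 were below the floor in both samples. Pcdh18 was above the floor only in the wild type on 1 of 3 probe sets, at 781 and 575, at least 1.06-fold lower. Pcdh12, known from endothelium, Pcdh15, known from hair cells, and Pcdh20 were below the floor throughout.

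Clustered protocadherins were mostly below the floor. Of 29 probe sets for 22 beta genes and Pcdhgc4, 2 were measured, 1 was above the floor only in the wild type and 26 were below it in both samples. On MOE430A the 23 probe sets had signals from 13.8 to 745 in the wild type, with a median of 240, and from 6.14 to 869, median 142, in the knockout sample. The knockout signal was the higher on 12 of these and the lower on 11. On MOE430B it was the higher on 1 of 6, with medians of 665 and 177. Signals this far under the floor carry no fold.

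The measured beta genes lay on opposite sides of 0. Pcdhb15 read 1992 for wild type against 1230 for knockout on an MOE430B probe set, a ratio of -0.69, or 1.62-fold lower. Its MOE430A probe set was below the floor, at 36.7 and 40.9. The beta genes are near copies of each other and the MOE430B probe set is of a kind that can match several of them, so the value is uncertain as one of Pcdhb15. Pcdhb8 read 745 and 869, just over the floor, a ratio of 0.23. Pcdhgc4, a gamma gene, read 1232 and 165, at least 1.31-fold lower. The bound is far smaller than the ratio of the raw signals because the knockout signal is under the floor.

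Alpha protocadherins had no probe set with a single symbol and so no member. Their 6 probe sets, each annotated to 9 or 14 alpha genes together, name no gene. Of these, 4 were below the floor in both samples, 1 was above it only in the wild type, at 773 and 188, and 1 in the knockout sample alone, at 698 and 806. In both cases the brighter signal was just over the floor of 735.

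**Figure D3:**
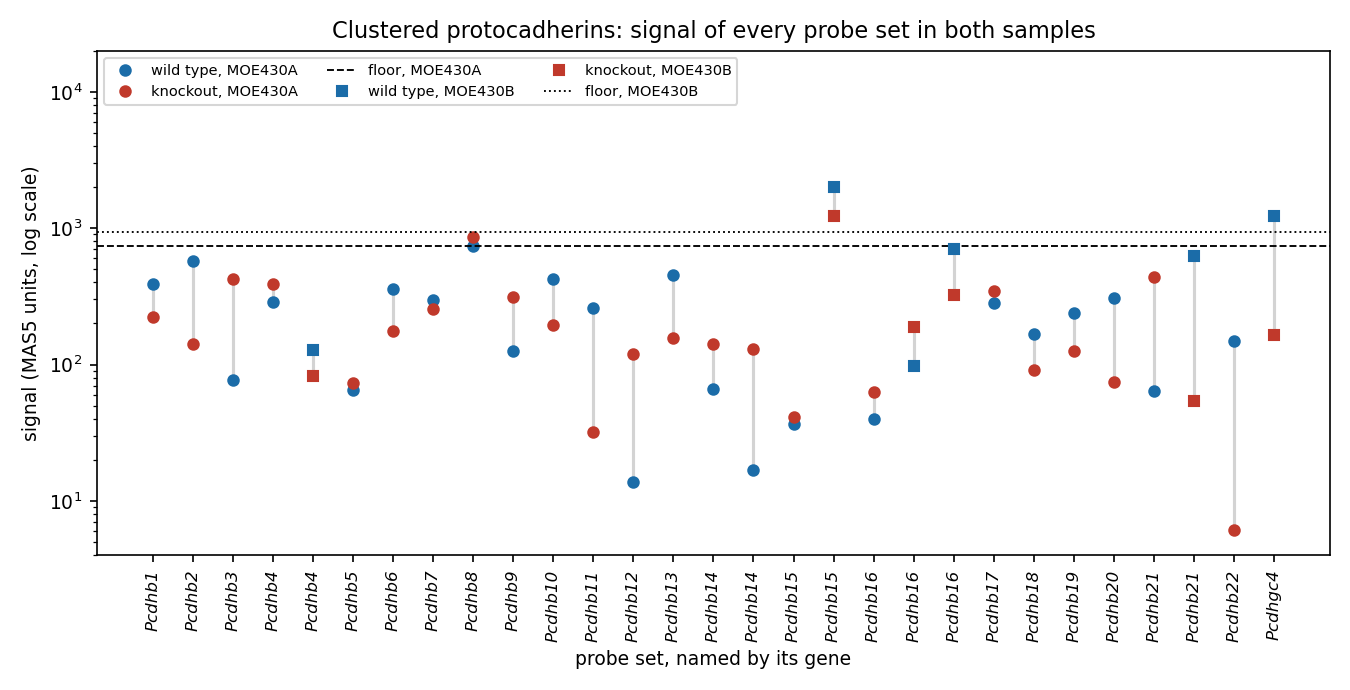
Signal (MAS5 units, log axis) of all 29 clustered protocadherin probe sets in the wild type (blue) and knockout (red) samples, with the floor of each design as a broken line. Only the probe sets of Pcdhb8 on MOE430A and Pcdhb15 on MOE430B are at or above the floor in both samples.

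Celsr1 had the mean farthest from 0 among the 26 members with a measured probe set; bounds from probe sets above the floor in 1 sample, such as the 2.08-fold of Cdh11, are not in that ranking. It encodes a core planar cell polarity cadherin of neural progenitors and epithelia. Its 1 probe set, on MOE430A, read 1562 for wild type against 3085 for knockout, a ratio of 0.98, or 1.98-fold higher. There is no other probe set of the gene to set beside it. The dorsal markers, higher in 7 of 8 genes, and the ventral markers, lower in 8 of 8, stand beside the Celsr1 value. So do the progenitor markers, with a median of 0.07. The part of any of these in it was not tested.

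Celsr2 and Celsr3 had means nearer 0. Celsr2, present in progenitors and neurons, read 3630 and 3197 on one probe set and 2648 and 2941 on the other, for ratios of -0.18 and 0.15 and a mean of -0.01. Celsr3, which guides axons in postmitotic neurons, read 2916 and 2481, a ratio of -0.23.

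Fat3, a Fat cadherin of neuronal dendrites, had the mean farthest below 0 among the measured members. Its probe set, on MOE430B, read 6529 for wild type against 3527 for knockout, a ratio of -0.89, or 1.85-fold lower. Fat4, which with Dchs1 controls progenitors of the cortex, was on the other side at 4814 and 6741 and at 1910 and 2240, for ratios of 0.49 and 0.23. The dimmer of these Fat4 probe sets is of a kind that can match other transcripts. Fat1, a cadherin of embryonic epithelia that include the neural progenitor layer, at 27381 and 28854, had a ratio of 0.08. Fat2, known from the cerebellum, was below the floor at 305 and 359. The neuron markers, lower in 8 of 9 genes, stand beside the Fat3 value, and their part in it was not tested.

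**Figure D4:**
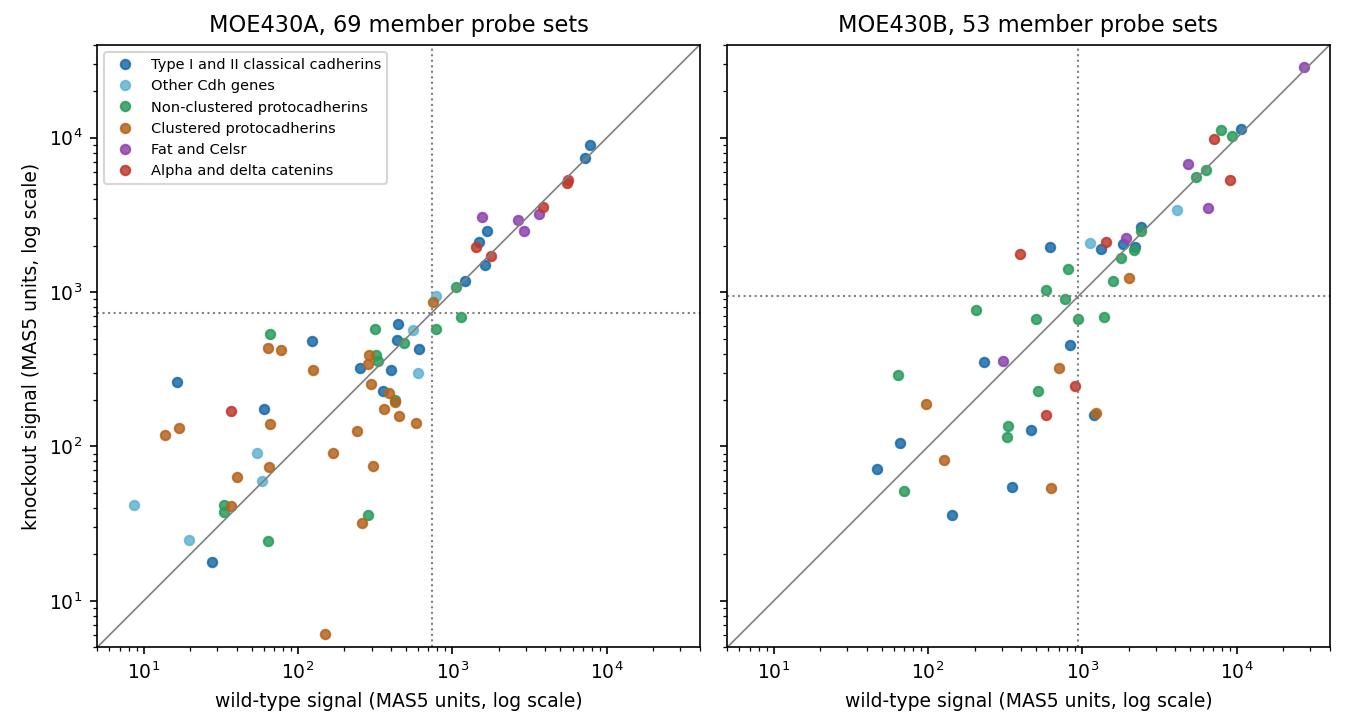
Signal in the wild type (horizontal) against the knockout sample (vertical) for the 69 and 53 member probe sets of MOE430A and MOE430B, on log axes, coloured by class; the solid line is equality and dotted lines are the floors. Above the floors the points lie along the line of equality, and below them they scatter widely, most of the clustered protocadherins among them.

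Proteins that work with cadherins showed no common direction. Of the junction partners, 16 of 21 genes on the arrays were measured, 8 higher and 8 lower, with a median of -0.02. Ctnnb1, beta catenin, which joins cadherin tails to alpha catenin, was at 0.06 over 3 probe sets between 0.02 and 0.10. Plekha7, which binds p120 catenin at junctions, was at 0.87 from 851 and 1548, with 2 other probe sets below the floor. Nectin2, an immunoglobulin-type adhesion protein of junctions, was at -0.62 from 1563 and 1018, and its other probe set passed the floor only in the wild type, at 1126 and 658. Those were the only junction partners past 1.5-fold on their mean. Jup, or plakoglobin, was above the floor only in the wild type, at 1065 and 493, at least 1.45-fold lower.

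Among partners of the atypical cadherins, 9 of 13 genes were measured, 4 higher and 5 lower, with a median of -0.09 and no mean past 1.5-fold. The means farthest from 0 were Scrib at -0.54, Vangl1 at -0.28 and Prickle2 at -0.21, all of planar or apical polarity. Vangl2, which acts with Celsr1, was at 0.19 with 3 probe sets from 0.14 to 0.25, chosen after its values were seen. Several genes of that list had probe sets above the floor only in the wild type. How common that was over all probe sets was not counted, so these bounds allow no reading of the list. Among them Fzd6, a frizzled receptor of planar polarity, read 2380 and 654, at least 2.53-fold lower, and Prickle1 2020 and 556, at least 2.15-fold lower. One probe set of Fjx1 read 2009 and 483, at least 2.13-fold lower, while its 2 measured probe sets had a mean of 0.07. Bounds for Dvl2 (1.32-fold lower), 1 probe set of Fzd3 (1.37-fold lower) and Dvl3 (1.14-fold higher) were smaller. The 4 measured probe sets of Fzd3 ran from -0.23 to 0.02, with a mean of -0.09. Shedding and trafficking genes had 11 of 11 measured, 4 higher and 7 lower, with a median of -0.02. Of these, Cbll1, an E3 ligase that acts on E-cadherin, was at 0.64 from ratios of 1.11 and 0.16, and the others were within 1.5-fold. Desmosomal cadherins and Dsp had 0 of 6 genes measured.

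Regulators of cadherin genes had 5 of 10 measured. Zeb2 was at -0.46 over 3 probe sets between -1.11 and -0.09, and Zeb1 at 0.38 from 0.05 and 0.71; both encode repressors of E-cadherin. A further Zeb1 probe set passed the floor only in the wild type, at 1122 and 385, at least 1.19-fold lower, so the Zeb1 probe sets disagree. Smchd1, which acts on clustered protocadherin silencing, was at 0.03, and its other probe set passed the floor only in the wild type, at 1413 and 805, at least 1.5-fold lower. Ctcf, which organises the choice of clustered protocadherins, was at -0.22, with both probe sets lower. Snai1, Snai2, Snai3, Twist1 and Twist2, which also repress cadherin genes, had no measured probe set. Of these, Twist2 and Snai3 passed the floor only in the knockout sample, with bounds of 1.43-fold and 1.01-fold.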

How the data were processed

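Total RNA of 1 wild-type and 1 E2f4 knockout neurosphere sample was labelled as biotin cRNA without amplification and hybridised to MOE430A and MOE430B arrays, per the labels' protocols. The deposited values are signal intensity on a linear scale from MAS5, per the submitters' processing notes; no version of MAS5 is named. The arrays of a design share a hybridisation day, per the file headers, and the designs have different days, so the ratio within a design is the value within its batch.

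Log2 ratios were centred per design (shifts of -0.003 and -0.001), after leaving out 64 control probe sets of each. Gene symbols came from the platform annotation, checked by identifier against RefSeq GRCm38.p6, where all 68 members were found. Members, lists and size rule were chosen with earlier results of these data known. E2f4 was named first. Signals were to be given for members at least 1.5-fold different on the mean or 2-fold on a probe set, the 3 brightest measured genes of each class (5 of the clustered protocadherins) and members above the floor in 1 sample alone with a bound of at least 1.5-fold. In the partner, shedding and regulator lists, genes past 1.5-fold were named, or else the 3 farthest from 0. In the marker lists, genes past 1.5-fold were named, and the others were given mostly by count and median. Signals of the remaining members, and Ctnnb1, Vangl2, Xist, Smchd1, Lhx6, Gsx1 and the partners above the floor in 1 sample alone, were added after their values were seen. The number of arrays limits the precision. Alternatives were the floor at the 30th or 70th percentile, none, or a pseudocount in its place; no centring, quantile or lowess (span 0.3) scaling; the brightest probe set; no _x_at, _s_at or _a_at probe sets; and each design alone. Tables were computed in pandas 2.3.3 and numpy 2.4.6 under Python 3.11.15, lowess fits with statsmodels 0.14.6 and figures with matplotlib 3.10.9.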

Additional observations from a re-analysis of the deposited data

Results flagged for a closer look

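Outside the member probe sets, 1 probe set annotated to 14 alpha protocadherins together was above the wild type and above the floor in the knockout sample, at 698 and 806, against a floor of 735. It names no single gene and entered no comparison, and the sign rests on 1 array per genotype. Dixon's rule and comparisons between groups do not apply with 1 sample a group.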

How the results depend on the processing

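The log2 ratios of Ctnnd1 (0.37 to 0.52), Celsr1 (0.73 to 0.99), Cdh26 (0.55 to 0.89), Fat3 (-0.89 to -0.74), Ctnnd2 (-0.76 to -0.11) and Pcdhb15 (-0.70 to -0.21) kept their sign in every alternative that gave a value. Pcdhb15 was at -0.27 with no floor and -0.21 with a pseudocount. Every alternative reuses the same 2 RNA samples, so a kept sign speaks of the processing and not of the genotypes. Celsr1, Cdh26 and Fat3 have 1 probe set each, so most alternatives could hardly change their sign. Cdh26 and Pcdhb15 had no value with the floor at the 70th percentile, nor had the clustered genes as a group. The median of the Cdh genes was above 0 in 11 of 11 alternatives, from 0.04 to 0.22. That of the non-clustered protocadherins ran from -0.08 to 0.05, and that of all members from -0.03 to 0.10, so neither kept its sign. The 0.1029 of all members was without _x_at, _s_at and _a_at probe sets. The clustered median, over 2 genes, was 0.2252 on MOE430A alone and without those probe sets, and -0.6938 on MOE430B alone, since each value is then 1 gene.

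Counts at 1.5-fold depended on the floor. With no floor, 12 member genes were higher (17.6%, against 16.8% of all genes) and 17 lower (25.0% against 15.7%). Of probe sets, 27 were then higher (22.1% against 17.7%) and 35 lower (28.7% against 16.7%). These counts take in 23 clustered protocadherins, 20 of them below the main floor in both samples, where signals carry no fold. Their median was then -0.39, against 0.12 for 21 Cdh genes and -0.05 for 12 non-clustered protocadherins. The counts therefore give no reading of the members as a whole. With the floor at the 30th percentile, 5 probe sets were higher (8.77% against 8.61%) and 6 lower (10.5% against 8.51%). With a pseudocount, 4 were higher (3.28% against 3.33%) and 7 lower (5.74% against 3.21%). Of genes, 1 was then higher (1.47% against 2.12%) and 3 lower (4.41% against 1.97%). With the floor at the 70th percentile, 1 probe set and 1 gene were higher (2.42% and 2.01% of all). There, 2 probe sets and 1 gene were lower (2.65% and 2.18%). Without the suffixed probe sets, 2 genes were higher (4.22% of all) and 1 lower (4.49%). On MOE430A alone, 1 gene and 1 probe set were higher (1.97% and 2.69% of all) and 0 lower (2.12% and 2.66%). On MOE430B alone, 1 gene and 1 probe set were higher (6.46% and 7.44%). There, 3 of 16 member genes (6.72% of all) and 3 of 23 probe sets (7.79%) were lower. With the brightest probe set, 2 of 26 genes were higher (4.42% of all) and 3 lower (4.79%). The cause of these differences was not tested, other than that fewer or more probe sets enter. No paired analysis was possible because each genotype had 1 sample.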
